A study of Mus musculus with 7 samples.

Results

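The genes described here are 34 mouse genes of meiotic prophase and of the spermatocyte, the germ cell that carries it out. They were chosen by name and function, and every one had a probe set annotated to it alone on at least 1 of the array designs used. Of the 18193 genes on the arrays hybridised with Sertoli and TM4 RNA 33 were members, and of the 8251 genes on the testis arrays 14 were. Gml was present on the testis arrays only, and 13 members were present on both designs. Whole testis was taken at 4 weeks from wild-type and from ERM knockout mice. Primary Sertoli cells, the somatic nurse cells of the seminiferous tubule, were taken from wild type at 4 weeks and from ERM knockout at 4 and at 10 weeks. The remaining arrays held TM4, a cultured line derived from mouse Sertoli cells, without and with transfection of ERM. ERM is the ETS-family transcription factor encoded by Etv5. Each of these 7 groups was 1 array, so no difference had a replicate check and no test across samples was possible. The strain, the part of Etv5 removed, the number of animals behind an array, the promoter that drove transfected ERM and the way Sertoli cells were isolated are not stated in the labels.

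In meiotic prophase homologous chromosomes are cut, paired and recombined before the reductive division. A proteinaceous axis forms along each chromosome from meiosis-specific cohesins and HORMA-domain proteins. The synaptonemal complex then zips the paired axes together while strand-exchange and mismatch-repair proteins turn breaks into crossovers. In the male these genes are largely restricted to germ cells, and RNA-binding proteins of the DAZ and Y-box families store and control the transcripts that spermatocytes make.

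The promoters of 5 members whose values are described below are shown because they carry the motif letters that were searched. Each is the stretch of 150 bases just before the start of transcription, from RefSeq on GRCm38.p6, written 5′ to 3′ on the strand of the gene. Capitals mark CACGTG, the E-box, GCGGGA, the core of an E2F site, or TGACGT, the core of a cAMP response element, on either strand.
Sycp3 promoter, chr10:88459437-88459586, plus strand: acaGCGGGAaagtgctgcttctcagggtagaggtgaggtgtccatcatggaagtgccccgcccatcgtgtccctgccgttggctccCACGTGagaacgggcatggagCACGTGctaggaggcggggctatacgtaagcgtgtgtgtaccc
Hormad1 promoter, chr3:95559527-95559676, plus strand: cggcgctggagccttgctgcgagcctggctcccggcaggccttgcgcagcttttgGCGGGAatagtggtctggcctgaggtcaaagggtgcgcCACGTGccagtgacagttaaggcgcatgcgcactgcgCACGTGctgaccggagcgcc
Tex12 promoter, chr9:50561269-50561418, minus strand: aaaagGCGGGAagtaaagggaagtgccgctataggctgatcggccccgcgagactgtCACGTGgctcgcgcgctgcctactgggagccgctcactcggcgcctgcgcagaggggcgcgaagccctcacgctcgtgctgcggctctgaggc
Sycp1 promoter, chr3:102936101-102936250, minus strand: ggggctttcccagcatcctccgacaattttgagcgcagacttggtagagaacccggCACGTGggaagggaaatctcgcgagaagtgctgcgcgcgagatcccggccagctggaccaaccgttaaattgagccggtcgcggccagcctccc
Dazl promoter, chr17:50293621-50293770, minus strand: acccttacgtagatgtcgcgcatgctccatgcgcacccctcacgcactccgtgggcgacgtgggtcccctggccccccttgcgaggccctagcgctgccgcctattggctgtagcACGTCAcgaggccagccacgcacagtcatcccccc
Of the 34 members 29 had a promoter in that table, and the other 5 were Spo11, Tex11, Tex15, Adam2 and Gml. An E-box lay within the 250 bases before the start in 8 of the 29 (27.6%), against 6.86% of all 27025 genes of the table. Those 8 were Sycp1, Sycp3, Syce2, Tex12, Hormad1, Stag3, Boll and Brdt, and Sycp3 and Hormad1 held 2 copies. The E2F core was present in 12 members (41.4%, against 18.8% of all genes), the cAMP response element core in Dazl alone (3.45%, against 7.29%), and the MYB core CAGTTG in Tex14 and Hspa2 (6.90%, against 12.6%). The E-box reads the same on both strands, and none of these motifs overlaps another in the stretches printed. These matches describe letters and not bound sites.

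All intensities below were scaled so that the trimmed mean of each array was 500, and readings under 100 were treated as under the floor, a level too low to rank. When 1 of the arrays compared was under the floor the fold is given as at least that value, and when both were no ratio is given. A gene was called different at 2-fold or more. On the arrays labelled ERM knockout Etv5 was not lower: its brightest probe set read 710 in wild-type Sertoli cells, 910 in knockout at 4 weeks and 995 in knockout at 10 weeks. It read 405 in TM4 without and 473 in TM4 with ERM. Because neither the deleted part nor the transfected sequence is known, these readings neither bear out nor contradict the labels, and every direction below is between arrays as labelled. The Sertoli transcription factor genes Sox9 and Wt1 read from 3689 to 6439 on the 3 primary Sertoli arrays, whereas in TM4 Wt1 was under the floor on both arrays and Sox9 read 95.1 and 150.3. Of 19 Sertoli cell genes 11 were at least 2-fold higher in wild-type Sertoli cells than in untransfected TM4, 4 were within 2-fold and 4 were at least 2-fold lower, Amh among them at 322 against 651. The array labelled knockout at 4 weeks stood apart in its 18S ribosomal RNA control, which read 4551 at the 5′ end against 349 to 352 on the other 2 primary Sertoli arrays. Its part in the results was not tested. Between probe sets of 1 gene, log2 ratios of bright genes had a standard deviation of 0.25 in testis, 0.20 between the 4-week Sertoli arrays, 0.25 between the knockout ages and 0.15 in TM4. It was wider for Sertoli cells over untransfected TM4, at 0.46 for wild type and 0.50 for knockout at 10 weeks. These values describe probe sets and not animals.

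Meiotic transcripts were present in the primary Sertoli preparations at 4 weeks. In the preparation labelled knockout at 10 weeks most members were within 2-fold of untransfected TM4 or under the floor in both. Of 27 members measured there 18 were within 2-fold, 5 higher and 4 lower. Of the 16811 genes measured 10725 were within 2-fold, with 17.4% higher and 18.8% lower. These shares lie close together, so likeness to TM4 at 10 weeks was not particular to the members. On the wild-type array 32 of the 33 members were at or above the floor, on the 4-week knockout array 31, on the 10-week knockout array 22, and in TM4 20 before and 21 after transfection. Of all non-control probe sets 73.8%, 72.0% and 73.0% were so on these Sertoli arrays, and 77.0% and 76.3% in TM4. Between the knockout arrays, 16 members were at least 2-fold lower at 10 weeks, 2 were at least 2-fold higher, 13 were within 2-fold and 2 were under the floor on both. Over all genes 3.51% were lower and 4.19% higher by that measure. The median log2 ratio was -1.12 over the 31 measured members, -0.99 with the 2 unmeasured ones set to 0, and -0.03 over all genes. Of the 16 decreases 5 are bounds. Read against the wild-type array instead, 19 members were lower and none higher, with 4.22% of all genes lower and 1.62% higher. That reading leaves out the array with the high 18S signal but differs in genotype as well as age. These comparisons share the 10-week array. Whether there were fewer germ cells in a preparation or less RNA of these genes in each cell cannot be told apart from bulk RNA.

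**Figure D1:**
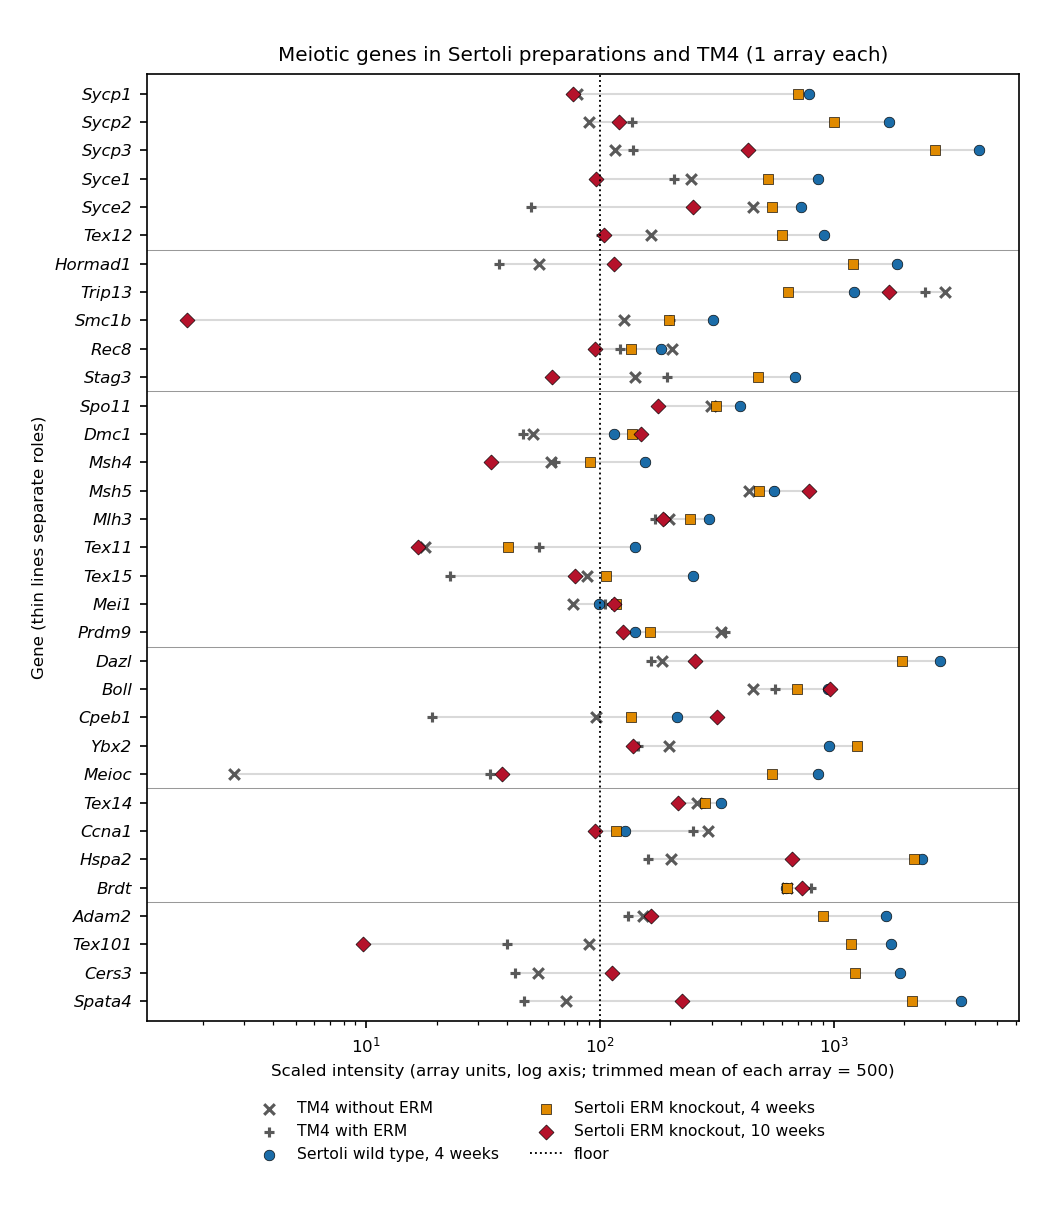
Scaled intensity (log axis) of the 33 meiotic genes on the 5 Sertoli and TM4 arrays, with 1 symbol per array, genes grouped by role and the floor of 100 as a dotted line. For some genes with high blue and orange symbols, such as Tex12 and Adam2, the red diamond of the 10-week knockout array sits near the grey TM4 crosses. For Sycp3 and Hspa2 it lies between the crosses and the other Sertoli symbols, and for Tex101 it lies left of the crosses.

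Every synaptonemal complex gene, 6 of 6, was at least 2-fold lower at 10 than at 4 weeks in knockout. Sycp3, a core protein of the chromosome axis and lateral element, read 4176 in wild type, 2708 in knockout at 4 weeks and 431 in knockout at 10 weeks, against 116 and 138 in TM4 without and with ERM. The 10-week value was thus 6.29-fold below the 4-week knockout value while still 3.71-fold above untransfected TM4. Sycp2, its partner in the lateral element, read 1723, 999.8 and 121 on the same 3 Sertoli arrays and 89.5 and 136 in TM4. Sycp1, the transverse filament that bridges the paired axes, read 785, 706 and 76.3, and 80.1 and 75.6 in TM4. At 10 weeks it lay under the floor as it did in TM4, so that its decrease of at least 7.06-fold is a bound. The central element genes gave the same picture for Tex12 (910, 603 and 104, with 165 and 101 in TM4) and Syce1 (854, 523 and 95.7, with 245 and 208 in TM4). Syce2, also of the central element, differed less, by 2.17-fold, at 722, 542 and 250, and its TM4 readings lay far apart, at 453 and 50.8.

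Among genes of the axis and its cohesins the decrease was found in some members only. Hormad1, which marks unsynapsed axes, read 1871 in wild type, 1207 in knockout at 4 weeks and 114 at 10 weeks, a 10.6-fold difference between the knockout ages, and it was under the floor in TM4. Stag3, a meiosis-specific cohesin subunit, read 683, 473 and 62.3, with 141 and 194 in TM4, which is at least 4.73-fold between the knockout ages. Smc1b, another cohesin subunit, went from 198 in knockout at 4 weeks to 1.71 at 10 weeks, but because the latter is under the floor its fold of at least 1.98 did not reach the threshold. Rec8, the meiotic kleisin, was low throughout, at 182, 136 and 95.0. Trip13, the ATPase that remodels HORMA-domain proteins and is also used in dividing somatic cells, went the other way. It read 1221, 635 and 1721 on the Sertoli arrays and 2988 and 2461 in TM4, so that it was 2.71-fold higher at 10 than at 4 weeks in knockout. Of its other probe sets 1 gave a log2 ratio of 0.76 in this comparison and 1 lay at the floor.

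Most recombination genes were too weakly detected to show a decrease between the knockout ages. Of the 9, Msh4 and Tex11 were under the floor on both arrays, and Dmc1, Tex15, Mei1 and Prdm9 read under 2 times the floor at 4 weeks, so that a 2-fold decrease could not have been called. The other 3, Spo11, Msh5 and Mlh3, were within 2-fold. Spo11, the topoisomerase-like protein that makes the breaks, read 398 in wild type, 315 in knockout at 4 weeks and 177 at 10 weeks, against 299 and 311 in TM4. Mlh3, a crossover-forming MutL protein, read 293, 242 and 186, against 198 and 171 in TM4. For Spo11 and Mlh3 the Sertoli and TM4 readings overlapped. Dmc1, the meiotic strand-exchange protein, read 115, 137 and 149 and was under the floor in TM4. Msh5, which stabilises recombination intermediates with Msh4, read 556, 480 and 784, with 433 and 557 in TM4, while its other probe set went from 184 to 134 between the knockout ages. Msh4 and Tex11 were above the floor in wild type only, at 156 and 141. Prdm9, the histone methyltransferase that places the breaks, read 142, 163 and 125 in Sertoli cells and 331 and 342 in TM4. Mei1 stayed between 76.5 and 118 on all 5 arrays. Tex15, needed for repair of the breaks, read 250 in wild type, 106 in knockout at 4 weeks and 77.9 at 10 weeks.

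RNA-binding proteins of the germ line included some of the largest differences. Dazl read 2843 in wild type, 1959 in knockout at 4 weeks and 255 at 10 weeks, with 184 and 165 in TM4, a 7.70-fold difference between the knockout ages that its other probe set shared at 8.50-fold or more. Ybx2, a Y-box protein that packages stored mRNA, read 955, 1257 and 139, with 197 and 146 in TM4. It was 9.05-fold lower at 10 than at 4 weeks in knockout. Meioc, which keeps cells in the meiotic programme after they enter it, read 854, 547 and 38.0 and was under the floor in TM4. The remaining genes of this group did not follow. Cpeb1, which controls translation through the poly(A) tail, read 215, 136 and 316 and was 2.32-fold higher at 10 than at 4 weeks in knockout. Boll, the ancestral DAZ-family member, read 942, 698 and 964 on its brightest probe set. That probe set disagreed with the other 3 of Boll, of which 1 read 620, 417 and 103, 1 read 519, 325 and 144 and 1 read 436, 293 and 159.

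Brdt, the testis-specific bromodomain protein that reads acetylated histones, showed the same conflict between probe sets. Its brightest read 623, 629 and 734 on the Sertoli arrays and 632 and 797 in TM4. Another probe set read 690, 442 and 71.9 and was under the floor in TM4, a decrease of at least 4.42-fold between the knockout ages, and the last read 453, 282 and 201. For Boll and Brdt the count of members therefore depends on which probe set stands for the gene. Hspa2, the heat-shock chaperone of spermatocytes, read 2390, 2209 and 660, with 202 and 160 in TM4. It was 3.35-fold lower at 10 than at 4 weeks in knockout, and at 10 weeks it was still 3.27-fold above untransfected TM4. Tex14, of the bridges between germ cells, stayed between 216 and 331 on all 5 arrays. Ccna1, the cyclin of late spermatocytes, read 95.0 to 128 in Sertoli cells and 290 and 249 in TM4.

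Among the cell-surface and other testis genes all 4 with a probe set were at least 2-fold lower, with log2 ratios from -3.56 to -2.44. Tex101, a GPI-anchored protein of germ cells, read 1752 in wild type, 1183 in knockout at 4 weeks and 9.70 at 10 weeks, at least 11.8-fold between the knockout ages. Cers3, a ceramide synthase for very-long-chain lipids, read 1927, 1233 and 113, a 10.9-fold difference. Spata4 read 3486, 2170 and 225, a 9.65-fold difference. All these genes were under the floor in TM4. Adam2, the sperm-surface fertilin subunit, read 1679, 898 and 166, with 153 and 131 in TM4, and was 5.41-fold lower.

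The members that were lower at 10 weeks were largely those that had stood above TM4 at 4 weeks. This can be read from 4 different arrays, since wild-type Sertoli over untransfected TM4 and 10 over 4 weeks in knockout share none. Of 19 members at least 2-fold higher in wild-type Sertoli cells than in TM4, 15 were at least 2-fold lower at 10 weeks, whereas of the 10 members within 2-fold of TM4 Syce2 was. In 4 of those 10 (Msh4, Tex11, Rec8 and Dmc1) the 4-week level was too close to or under the floor for a 2-fold decrease to be called. The rest read near TM4 in knockout at 4 weeks too, such as Spo11 (315 against 299) and Mlh3 (242 against 198). A 2-fold decrease would have put them under TM4, so the split itself partly sets this contrast. For Brdt the class depends on the probe set, since another stood at least 6.90-fold above TM4 in wild type and fell at least 4.42-fold. Among all genes, 8.83% of the 3011 that were higher in wild-type Sertoli cells than in TM4 were lower at 10 weeks, and 1.98% of the 11187 within 2-fold of TM4. The 4 exceptions among the 19 were Boll, Cpeb1, Smc1b and Tex15. Cpeb1 was 2.32-fold higher at 10 weeks. Smc1b and Tex15, like Cpeb1, had 4-week levels too low for a 2-fold decrease to be called. Boll was an exception on its brightest probe set, whereas 2 of its 4 probe sets were at least 2-fold lower. Set directly against TM4, 5 of the 19 were still at least 2-fold higher on the 10-week array, namely Sycp3, Hspa2, Spata4, Boll and Cpeb1. Of the 3011 genes chosen in the same way from all genes, 2372 were still higher there, and of all genes whatever their wild-type level 17.4% were. Against the same TM4 array 19 members were higher and 3 lower in wild-type Sertoli cells, with 17.8% and 16.1% of all genes. With the deposited values, which were not scaled to each other, that split was 24 higher and 0 lower.

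**Figure D2:**
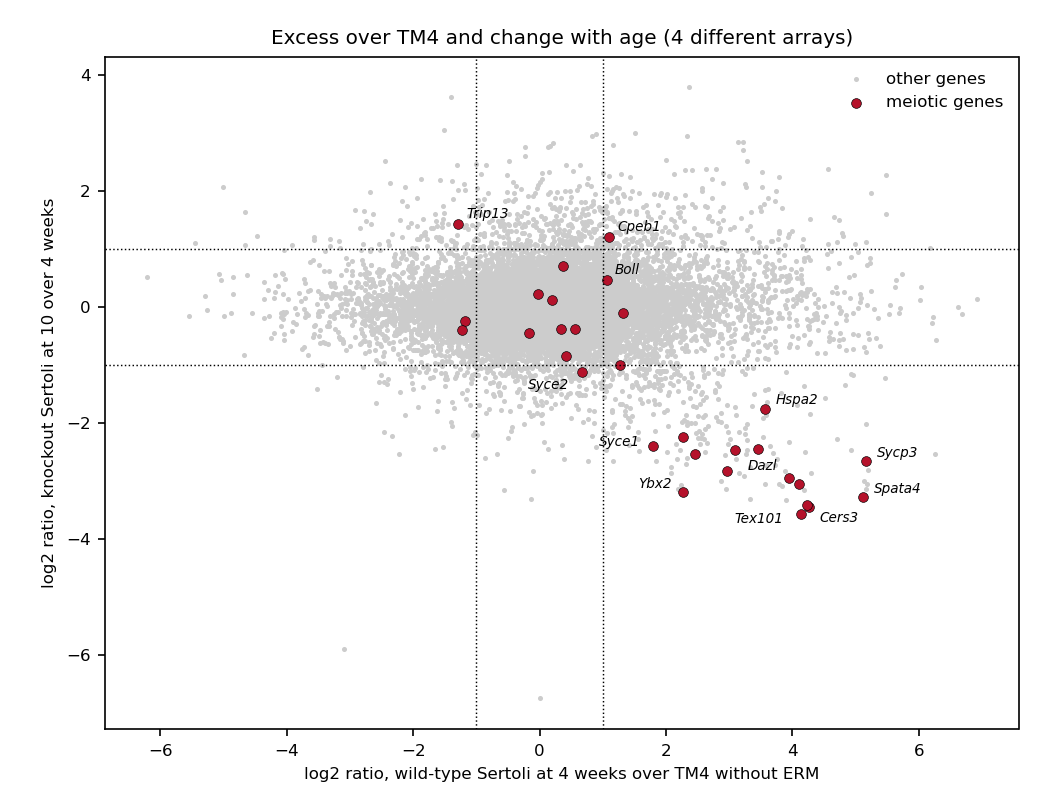
Each point is a gene, with its log2 ratio of wild-type Sertoli cells over untransfected TM4 on the horizontal axis and of knockout Sertoli cells at 10 over 4 weeks on the vertical axis; dotted lines mark 2-fold. Of the 19 meiotic genes (red) right of the right-hand line 15 lie under the lower line, while Trip13 and Cpeb1 lie above the upper line.

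Other germ cell lists had medians below 0 at 10 weeks too, and the undifferentiated spermatogonia list did not. Of 27 further meiotic prophase genes with a probe set, 6 were at least 2-fold lower and none higher between the knockout ages, with a median log2 ratio of -0.38 over the 21 measured. Psmc3ip, a partner of DMC1 in strand exchange, was 5.45-fold lower at 103 against 562, and H2ax, the histone phosphorylated at breaks, was 2.20-fold lower at 436 against 961. Of 20 pachytene and later spermatocyte genes 10 were lower and none higher, with a median of -1.31 over the 18 measured. Ldhc, the lactate dehydrogenase of germ cells, read 1172 against 6741, and the kinase gene Nek2, the PIWI gene Piwil1 and the pyruvate dehydrogenase gene Pdha2 were under the floor at 10 weeks, at least 8.90, 8.35 and 8.25-fold lower. Of 24 spermatid genes 11 were lower and none higher (median -0.96), with the transition protein gene Tnp2 at 132 against 1157 and the protamine gene Prm2 at 484 against 2955. Of 18 undifferentiated spermatogonia genes 2, Cdh1 and Id4, were lower, with a median of 0.15 over the 16 measured. This list had not stood above TM4 at 4 weeks. Of 17 measured in wild-type Sertoli cells against untransfected TM4, 2 were higher and 7 lower (median -0.55), with 17.8% and 16.1% of all genes. Its summed intensity was 10911.5 in wild type, 12861 in knockout at 4 weeks and 8946 at 10 weeks, against 11701 in untransfected TM4. Most of the difference in this sum between the knockout ages lay in Id4, which is also made by Sertoli cells. The summed intensity of the 20 spermatocyte genes was 23700 in wild type, 15725 in knockout at 4 weeks and 4636 at 10 weeks, against 6798 and 6557 in TM4.

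The somatic, cell cycle and differentiating spermatogonia lists had medians on either side of 0 between the knockout ages. Of 19 Sertoli cell genes 3 were at least 2-fold lower and none higher, with a median log2 ratio of -0.08 and summed intensities of 84881 at 4 weeks and 79772 at 10 weeks. Of 14 cell cycle genes 4 were lower, with a median of -0.50 over 13 measured and sums of 8549 and 5973. Of 10 peritubular and fibroblast genes 1 was higher (median 0.29), and of 11 differentiating spermatogonia genes 1 was lower (median -0.39 over 9 measured). Of 7 Leydig cell genes 1 was higher and none lower (median 0.71), with sums of 4429 and 7102. Of 13 macrophage genes 3 were higher and none lower (median 0.26), with sums of 5274 and 8878. The part that the make-up of the preparations had in the members' values was not tested.

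**Figure D3:**
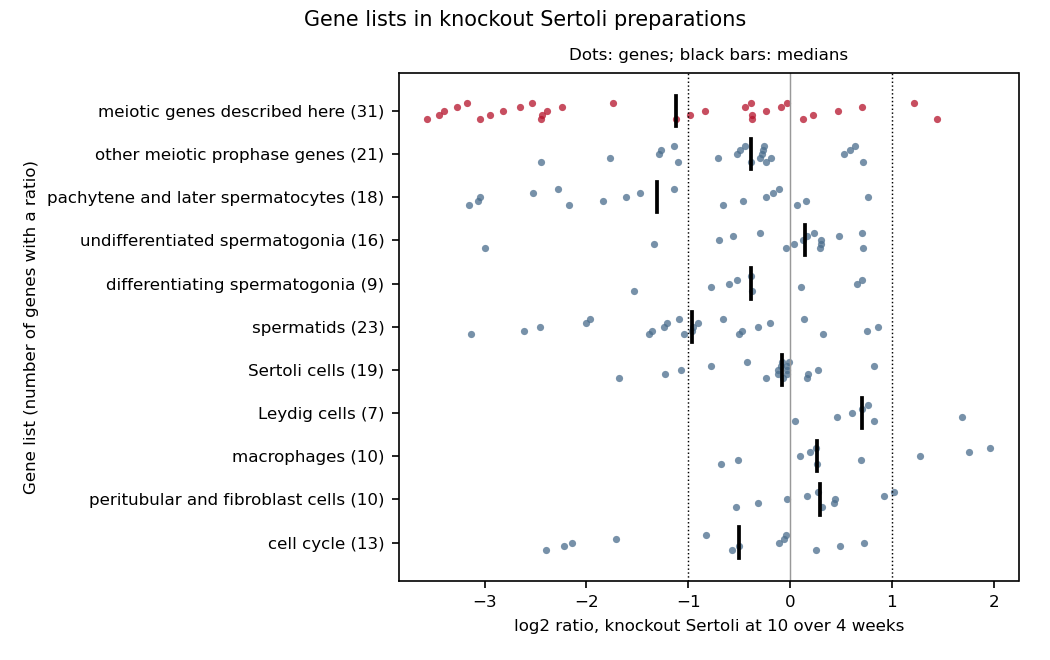
Log2 ratio of knockout Sertoli preparations at 10 over 4 weeks for each gene (dots) of the meiotic genes described here and of 10 other lists, with the median of each list as a black bar, the number measured in brackets and 2-fold as dotted lines. The 18 pachytene and later spermatocyte genes have the lowest median, -1.31, and the 7 Leydig cell genes the highest, 0.71.

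Between wild type and knockout at 4 weeks most members were lower on the array labelled knockout, by small amounts. Of the 33 members 28 had a ratio below 0 and 5 above it, against 51.8% of all measured genes below 0, and the median log2 ratio was -0.53, against -0.02 over all genes. Only Tex15 was past 2-fold, at 106 against 250 (2.34-fold), which is 3.03% of the members, and 3.18% of all genes were lower and 0.681% higher by that measure. The call on Tex15 rests on 1 probe set close to the floor. The 6 synaptonemal complex genes had log2 ratios from -0.79 for Sycp2 to -0.15 for Sycp1, and the 5 axis and cohesin genes had a median of -0.62. Trip13 was at -0.94 and Adam2 at -0.90, the next lowest after Tex15. The members above 0 were Ybx2 at 0.40, Dmc1 at 0.25, Mei1 at 0.23 or more, Prdm9 at 0.20 and Brdt at 0.01. Hspa2 was at -0.11. In the same comparison 3 of 27 further meiotic prophase genes were lower, among them Stra8, which acts at meiotic entry, at 259 against 866. Pachytene and later genes had 2 of 20 lower (Slc25a31 and Tcfl5) and a median of -0.41, while spermatid genes had a median of 0.32 with Prm2 past 2-fold at 2955 against 1439. Of 13 macrophage genes 4 were lower, with sums of 5274 against 12182 in wild type, and of 14 cell cycle genes 4 were lower (median -0.76). The 18S signal named above also separates these arrays. The part of any of these in the members' shift was not tested.

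In whole testis at 4 weeks 2 members, Dazl and Gml, stood out. Of the 14 members with a probe set 12 were measured, 2 were at least 2-fold lower on the array labelled knockout and none was higher, with 0.852% of all genes lower and 0.532% higher. Dazl read 402 against 1364 in wild type, 3.39-fold lower, and its other probe set read 364 against 1221. Gml, a GPI-anchored protein gene of the testis, read 798 against 2293, 2.87-fold lower on the only probe set annotated to it alone. Further probe sets that name Gml together with its paralog Gml2 were not used, and signal from the paralog cannot be set apart. Sycp1 followed at 481 against 880 (log2 ratio -0.87). Dmc1 was under the floor in knockout and at 149 in wild type, at least 1.49-fold lower.

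The other measured members differed by less than 2-fold in the testis. Ybx2 read 4135 in knockout and 4422 in wild type, Ccna1 980 and 963, Adam2 1769 and 2192, Hspa2 4456 and 5888, and Stag3 634 and 771. Syce2 was the 1 other member above 0 besides Ccna1, at 2618 against 2113 (0.31). Trip13 was at -0.46 and Msh5 at -0.05. Sycp3 and Cpeb1 were under the floor on both arrays, with Sycp3 at 10.3 in wild type on its only probe set. On the other array design Sycp3 read 4176 in wild-type Sertoli cells, so the testis reading is not taken to show absence. The median over the 12 measured members was -0.36, and -0.30 with the unmeasured ones set to 0, against -0.01 over all genes. Among 8 further meiotic prophase genes all 8 lay below 0 (median -0.68) and 3 were past 2-fold, whereas 11 pachytene and later genes had a median of -0.11 with none past it. Pgk2, a glycolytic enzyme of late germ cells, was at 0.58. Of 18 spermatid genes 16 lay above 0 (median 0.28), with summed intensities of 108874 in knockout and 90573 in wild type. Sertoli cell genes had a median of 0.30 (sums of 23771 and 17929) and cell cycle genes of -0.44. The part that a changed cell mixture had in these values was not tested.

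**Figure D4:**
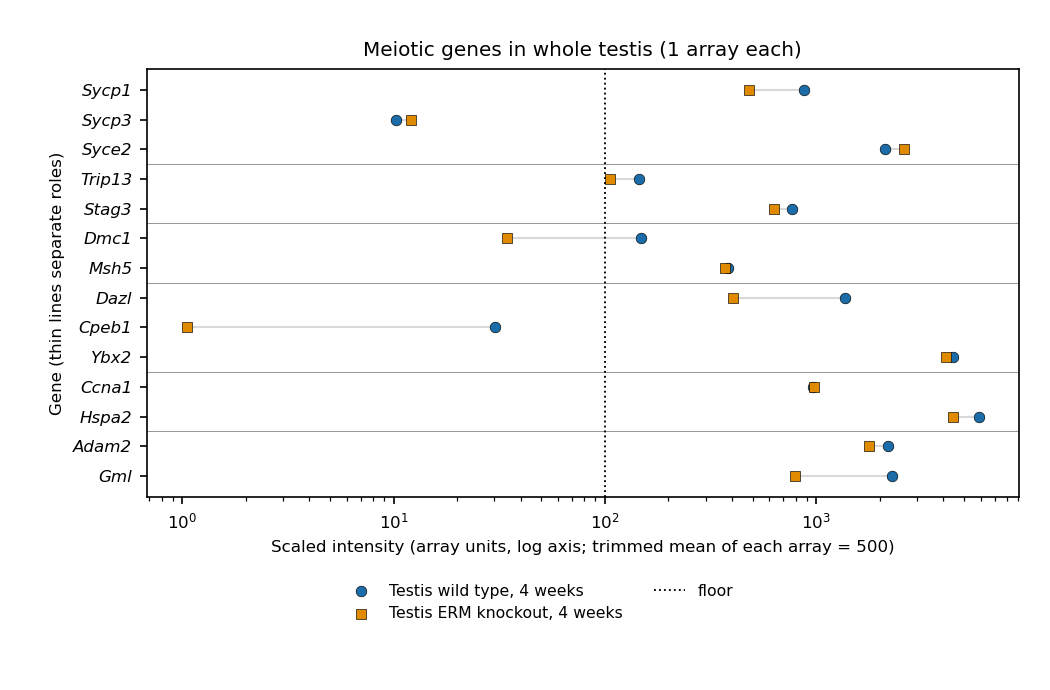
Scaled intensity (log axis) of the 14 meiotic genes on the testis arrays, with wild type as blue circles, knockout as orange squares and the floor of 100 as a dotted line. Among genes above the floor on both arrays Dazl and Gml have the widest gaps, at 402 against 1364 and 798 against 2293, Dmc1 is under the floor in knockout, while Ybx2, Ccna1 and Msh5 nearly coincide.

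For some of the members measured on both designs the ratios at 4 weeks are set side by side here. Dazl was 3.39-fold lower in knockout testis and 1.45-fold lower in knockout Sertoli cells at 4 weeks. Sycp1 was 1.83-fold lower in the former and 1.11-fold lower in the latter. For Adam2 the order was the reverse, with 1.24-fold in testis and 1.87-fold in Sertoli cells. Trip13 (log2 ratios of -0.46 in testis and -0.94 in Sertoli cells) and Stag3 (-0.28 and -0.53) had the order of Adam2. Hspa2 (-0.40 and -0.11) had the order of Dazl, and Ybx2 (-0.10 and 0.40) was below 0 in testis only. These differences between tissues were not tested.

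Few members differed between the TM4 arrays labelled without and with ERM, on which Etv5 itself read 405 and 473. Of the 33 members 22 were measured, 1 was at least 2-fold lower and none was higher, with 0.421% and 0.303% of all genes, and the median log2 ratio was -0.05, against 0.00 over all genes. The exception was Syce2, which read 453 without and 50.8 with ERM on its only probe set. Of the remaining 21 members 11 lay above 0 and 10 below, from -0.74 for Rec8 to 0.64 for Smc1b, with Rec8 at 204 and 122 and Smc1b at 127 and 199.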

How the data were processed

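Each of the 7 groups, taken from the labels, was hybridised to 1 single-colour Affymetrix array. The authors deposited a linear intensity for each probe set, none below 1; software and scaling are not given in the sources. The tables held 45101 probe sets (Sertoli and TM4) and 12488 (testis), of which 34945 and 10833 named exactly 1 gene and were kept; 34741 and 10817 of these matched RefSeq genes of GRCm38.p6, used for names. Array intensities were scaled so that the mean of non-control probe sets, without the lowest and highest 2%, was 500. Values under a floor of 0.2 of that mean were set to it. The brightest probe set on average stood for its gene. Log2 ratios were computed from these scaled and floored values; no test was possible, and precision is limited by having 1 array per group.

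The members, gene lists, comparisons and 7 alternatives (values as deposited, centred ratios, quantile normalization, floors of 0.1 and 0.4 of the mean, the median over probe sets, and no probe sets prone to cross-hybridisation) were chosen with earlier results of these data known. All members were named, and of each other list up to 4 genes per comparison, those with the largest ratios among genes whose brighter array reached 500. Comparing the knockout Sertoli arrays with TM4 was added after seeing the data. The calling was tested on simulated arrays, with changes put into bright genes only. That test does not cover members near the floor. The software was matplotlib 3.10.9, scipy 1.17.1, pandas 2.3.3 and numpy 2.4.6 under Python 3.11.15.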

Additional observations from a re-analysis of the deposited data

Results flagged for a closer look

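The knockout to wild-type ratio of some members pointed one way in 1 comparison and the other way in another, each by more than the spread between probe sets. That spread comes from bright genes and does not describe weak ones, such as Dmc1 and Cpeb1. Between testis and Sertoli cells at 4 weeks these were Syce2 (0.31 in testis and -0.41 in Sertoli cells, log2) and Dmc1 (at most -0.57 in testis, a bound, and 0.25 in Sertoli cells). Between the knockout Sertoli arrays of 4 and of 10 weeks, both set against the 4-week wild-type array, they were Trip13 (-0.94 and 0.49), Msh5 (-0.21 and 0.50), Cpeb1 (-0.66 and 0.56) and Ybx2 (0.40 and -2.78). Msh5 has another probe set, which read lower than wild type at both ages (-0.23 and -0.69). The other Dmc1 probe set of that design was under the floor on all Sertoli and TM4 arrays. The second pair shares its wild-type array, and the 10-week ratio also contains the difference in age. None of these differences was tested, since each rests on 1 array per group.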

How the results depend on the processing

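Of the 126 counts and medians recomputed, 114 stayed within 1.5 times the count or within the probe set spread of the median. The comparisons of knockout Sertoli cells with TM4 were not recomputed and rest on the main scaling alone. Before scaling, the trimmed mean was 183 in untransfected TM4 and 293 in knockout at 10 weeks. In knockout Sertoli cells at 10 against 4 weeks the members lower numbered 16 or 17 under all 7 alternatives; those higher numbered 1 with the higher floor, with the median over probe sets and without cross-hybridising probe sets. That comparison's median was -1.43 with the lower and -1.52 with the higher floor, and against wild type it was -1.91 with the higher floor. At 4 weeks 2 members were lower with the lower floor and 0 with the higher. For wild-type Sertoli cells against TM4, the values as deposited gave 0 lower and a median of 1.77, with a median of 0.60 over all genes, and the higher floor gave 1 lower and a median of 1.77. The small median in TM4 changed sign, to 0.02 with the higher floor and 0.05 over probe sets. No called member changed direction.

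Over all genes, the higher floor left 22 higher and 35 lower in testis and 24 higher and 27 lower in TM4, the lower floor gave 61 higher in testis and 134 higher and 193 lower in TM4, and the deposited values gave 44 lower in TM4 and 5771 higher and 1219 lower for wild-type Sertoli cells against TM4. No paired analysis was possible because each group had 1 array. With 1 array per group the precision is limited by the number of arrays, and readings under the floor have no order.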

Other observations

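In the spermatogonia and somatic lists, the following genes were among those past 2-fold between the knockout Sertoli arrays. They were picked by the size of their ratios and need not stand for their lists. Of 16 undifferentiated spermatogonia genes measured there, 10 lay above 0 (median log2 ratio 0.15). Sertoli cell genes had a median of -0.08. All 7 Leydig cell genes and 8 of 10 measured macrophage genes lay above 0. Cdh1, the epithelial cadherin that marks undifferentiated spermatogonia, was 7.96-fold lower at 10 than at 4 weeks (128 against 1023), and Id4, an inhibitor of differentiation that is also made by Sertoli cells, was 2.53-fold lower (1819 against 4598). Gata1, a Sertoli cell transcription factor whose level depends on the stage of the tubule, was 2.34-fold lower (864 against 2020). Cyp17a1, a steroid enzyme of Leydig cells, was 3.23-fold higher (1175 against 364), and the lysosomal protease gene Ctss, listed among the macrophage genes, was 3.91-fold higher (1830 against 468).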
